A study of Mus musculus with 7 samples.

Results

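The semaphorin guidance system was examined in ribosome-bound RNA of medial prefrontal cortex cells that had been active during cocaine or during shock. It was taken as every gene whose symbol names a semaphorin of classes 3 to 7, a plexin or a neuropilin, which gave 31 genes of the 22180 that had a probe set with 1 gene symbol. These were 20 semaphorins, 9 plexins and 2 neuropilins. Membership follows the symbol alone, whatever the gene's values, and each gene was represented by its probe set of highest mean over the 7 arrays.

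The cocaine group (4 arrays, numbered 4, 5, 6 and 7) came from mice given cocaine at 15 mg/kg for 2 days, and the shock group (3 arrays, numbered 4, 5 and 6) from mice given 20 shocks of 0.5 mA, each lasting 2 s, also for 2 days. Mice of both groups combined a ribosome TRAP allele with an ArcCre transgene and were in the presence of tamoxifen, so that cells active in that window gained a GFP tag on their ribosomes, and anti-GFP antibody recovered the tagged ribosomes with their RNA. The tag follows the Arc promoter, so it marks any cell that used that promoter in the window and not a chosen cell type. The labels give no strain or age, nor whether an array holds RNA of 1 mouse, of several or of a shared extract. The p-values below therefore reflect array-to-array spread, part or all of which can be technical. No input RNA and no unstimulated group was analysed here.

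Semaphorins are secreted or membrane-bound guidance proteins that steer axons, dendrites and migrating cells, and in the adult brain they are known for roles at synapses, in myelinating cells and in vessels. Plexins are their main receptors and act inside the cell on small GTPases and the cytoskeleton. Neuropilins are co-receptors with which most secreted class 3 semaphorins bind plexin-A proteins, and they also bind VEGF. Class 4, 5 and 6 semaphorins span the membrane, and class 7 is held at the membrane by a lipid anchor.

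No member of the family differed between the groups beyond the spread between arrays. Differences are given as cocaine minus shock on the log2 scale of the deposited values, and each gene was tested with limma over all 22180 genes. By limma's adjusted p, 0 of the 31 members passed 0.05 (smallest adjusted p = 0.938), as did 0 of all genes (0%). At an unadjusted p under 0.05 there were likewise 0 of 31 members, against 688 of all genes (3.1%). The mean was higher in the cocaine group for 14 members (45.2%) and lower for 17, and it was higher for 50.9% of all genes. The median difference over the members was -0.018, beside 0.0016 over all genes, and the median absolute difference was 0.047 for the members, beside 0.051 for all genes.

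The intervals of the differences were narrow, but they rest on the spread between arrays, part or all of which can be technical. The 95% interval of the difference lay inside a 1.5-fold change in either direction for all 31 members, and it did so for 94.2% of all genes. The widest bound belonged to Sema6a, at 0.443 on the log2 scale or 1.36-fold, and for 23 members the interval stayed within 0.25 of 0. These intervals cover 1 gene each and are not adjusted for the number of genes. The mean level of 30 members lay above a stand-in for background of 5.46, the 95th percentile over 1394 genes for olfactory or vomeronasal receptors. The exception was Sema3d.

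**Figure D1:**
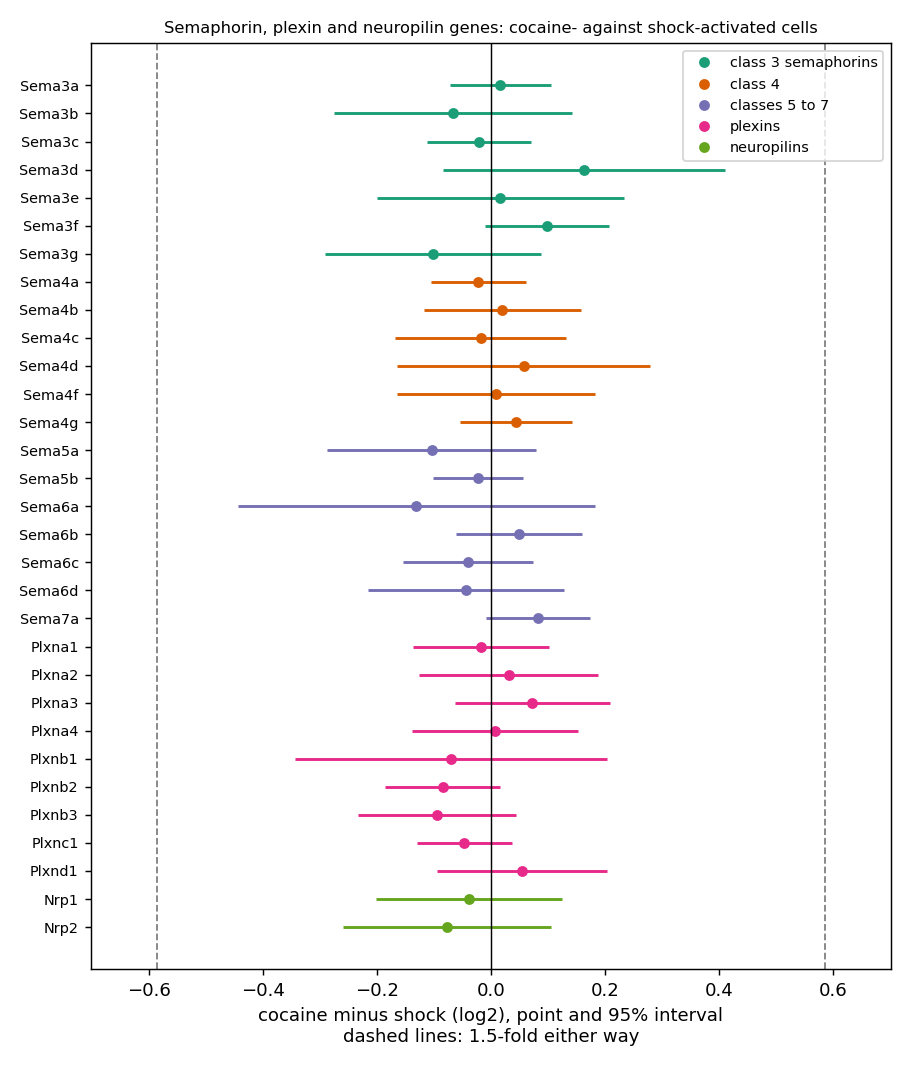
Cocaine minus shock difference (log2) of each of the 31 genes with its 95% interval from limma, coloured by class, with dashed lines at 1.5-fold in either direction. All intervals include 0 and all lie inside the dashed lines, the longest being that of Sema6a.

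Among the secreted class 3 semaphorins, 4 of 7 had a higher mean in the cocaine group. Sema3f, a repellent that signals through neuropilin-2, had 7.20, 7.19, 7.27 and 7.32 on the cocaine arrays, against 7.10, 7.14 and 7.19 on the shock arrays. The groups touched at a shared value, the lowest cocaine array being equal to the highest shock array. The difference was 0.099 (SE 0.046, 1.07-fold), with an unadjusted p = 0.0681 and an adjusted p = 0.938 by limma. Sema3d, the member under the background level, had 4.82, 4.82, 5.07 and 4.60 on the cocaine arrays, against 4.67, 4.62 and 4.71 on the shock arrays. Cocaine arrays 6 and 7 were its highest and its lowest array, so its difference of 0.16 (SE 0.10), the largest of the family, rested on the array of most extreme value. Leaving out the first gave 0.081, and leaving out the second gave 0.24.

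Sema3a, the classic axon repellent of the family, had 6.05, 5.998, 6.11 and 6.08 on the cocaine arrays, against 6.05, 6.03 and 6.05 on the shock arrays. Its shock values fell within the range of its cocaine values, and the difference was 0.017 (95% interval -0.072 to 0.10). Sema3g, known mainly from vessels, had 6.01, 6.09, 5.79 and 5.94 on the cocaine arrays, against 6.01, 6.15 and 6.01 on the shock arrays. Cocaine array 6 was its lowest array, and its difference of -0.10 became -0.044 without that array. The other class 3 genes were Sema3b (-0.066), Sema3c (-0.021) and Sema3e (0.017), a ligand that binds plexin-D1 without a neuropilin. The mean level of Sema3b, 5.53, was just above the background stand-in.

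Both neuropilins had overlapping groups. Nrp1, the co-receptor of Sema3a and of VEGF, had 7.50, 7.67, 7.47 and 7.64 on the cocaine arrays, against 7.68, 7.51 and 7.64 on the shock arrays. Its difference was -0.039 (95% interval -0.20 to 0.12). Nrp2, the co-receptor of Sema3f, had 8.94, 9.07, 9.01 and 9.18 on the cocaine arrays, against 9.04, 9.26 and 9.07 on the shock arrays. Shock array 5 was its highest array, and its difference of -0.077 (95% interval -0.26 to 0.10) was -0.0092 without that array. The 2 neuropilins therefore had their highest values on different shock arrays, Nrp1 on array 4 and Nrp2 on array 5.

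Class 4 semaphorins, which act mostly through plexin-B receptors, had differences of -0.022 to 0.057 over 6 genes, 4 of them positive. Sema4d, a ligand of plexin-B1 that oligodendrocytes carry, had 7.37, 7.59, 7.33 and 7.68 on the cocaine arrays, against 7.47, 7.38 and 7.47 on the shock arrays. Its cocaine values lay on both sides of all shock values. Sema4g had 7.11, 7.001, 7.001 and 7.001 on the cocaine arrays, against 7.001, 7.001 and 6.95 on the shock arrays, and 5 of these 7 values were identical. Sema4a differed by -0.022, Sema4b by 0.020, Sema4c, a ligand of plexin-B2, by -0.018, and Sema4f by 0.0087.

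The 3 plexin-B genes all had a lower mean in the cocaine group. Plxnb2 had 7.55, 7.62, 7.58 and 7.55 on the cocaine arrays, against 7.62, 7.73 and 7.62 on the shock arrays. The highest cocaine array equalled the lowest shock arrays, and the difference was -0.085 (SE 0.042, unadjusted p = 0.0863, adjusted p = 0.938 by limma). Plxnb3, a plexin found mainly in oligodendrocytes, had 6.05, 6.05, 5.996 and 6.05 on the cocaine arrays, against 6.07, 6.27 and 6.05 on the shock arrays. Shock array 5 alone stood above the rest, and its difference of -0.095 was -0.026 without that array. Plxnb1, the receptor of Sema4d, differed by -0.070, from values that ran from 7.04 to 7.50 on the cocaine arrays and from 7.19 to 7.43 on the shock arrays. A second Plxnb1 probe set, with a mean of 5.31 under the background level, differed by -0.17, and the mean of both probe sets by -0.12. Without cocaine array 4, the lowest, the difference of the kept probe set was 0.0079.

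Sema7a, the anchored semaphorin that binds plexin-C1 and beta1 integrins, was the 1 member whose groups did not overlap. It had 8.67, 8.72, 8.76 and 8.76 on the cocaine arrays, against 8.66, 8.61 and 8.66 on the shock arrays. Every cocaine array was above every shock array, but the gap between the lowest cocaine and the highest shock array was 0.0053. The means were 8.73 ± 0.046 on cocaine arrays (SD, n = 4), against 8.64 ± 0.029 on shock arrays (SD, n = 3), a difference of 0.083 (SE 0.038, 1.06-fold, 95% interval -0.0079 to 0.17). By limma the unadjusted p was 0.0675 and the adjusted p = 0.938. Cocaine lay wholly above shock in 1.25% of all genes and wholly below it in 1.11%, and in 1 and 0 of the 31 members, so the count is near the background. Leaving out single arrays moved the Sema7a difference between 0.066 and 0.10.

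The mean of Plxnc1, the receptor of Sema7a, was lower in the cocaine group. Plxnc1 had 9.64, 9.645, 9.56 and 9.62 on the cocaine arrays, against 9.70, 9.645 and 9.65 on the shock arrays. Cocaine array 5 and shock array 5 held the same value, and all other cocaine arrays lay below all shock arrays. The difference was -0.047 (SE 0.035, unadjusted p = 0.223 and adjusted p = 0.938 by limma).

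**Figure D2:**
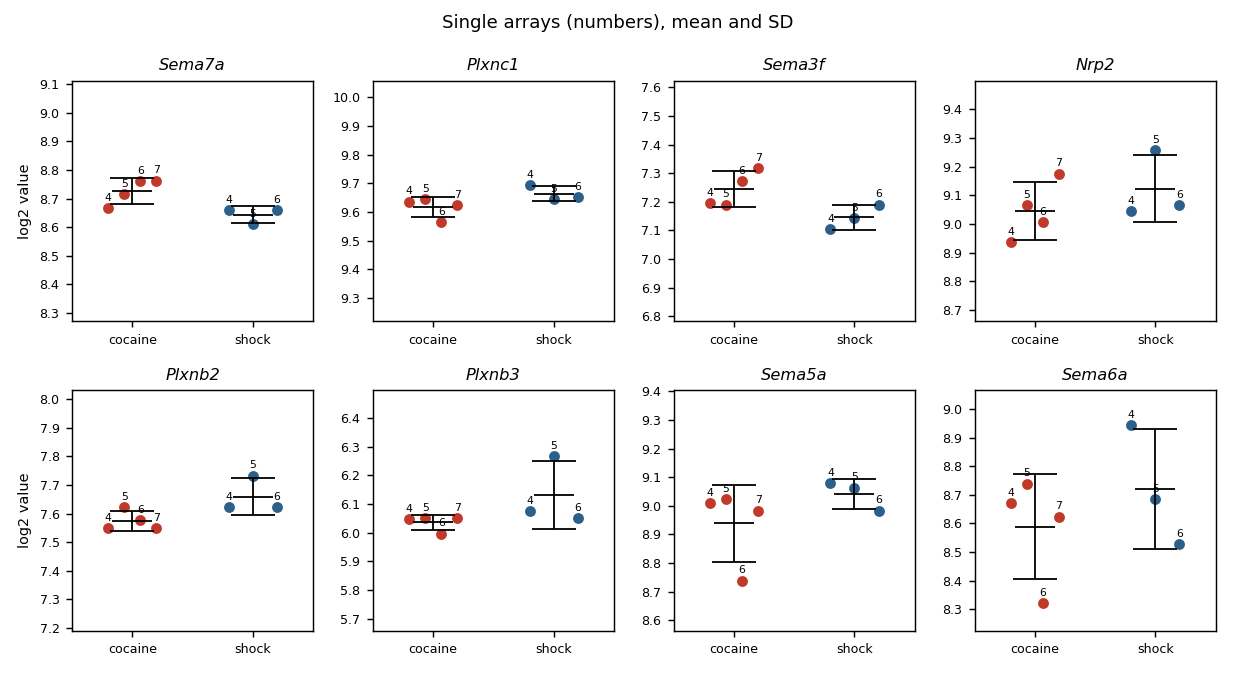
Log2 values of 8 members on the single arrays (points, labelled with the array number), with the mean and SD of the 4 cocaine arrays at left and the 3 shock arrays at right of each panel. Each panel spans the same height, and the groups separate only for Sema7a, by 0.0053.

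Sema5a and Sema6a, membrane semaphorins that are present in oligodendrocytes as well as neurons, had the most negative differences of the family. Sema5a had 9.01, 9.02, 8.74 and 8.98 on the cocaine arrays, against 9.08, 9.06 and 8.98 on the shock arrays. Cocaine array 6 stood apart from the rest, and the difference of -0.10 (SE 0.077) was -0.037 without it. Sema6a had 8.67, 8.74, 8.32 and 8.62 on the cocaine arrays, against 8.94, 8.69 and 8.53 on the shock arrays. It varied most of all members (pooled within-group SD 0.195), with the lowest value on cocaine array 6 and the highest on shock array 4, and its difference of -0.13 was -0.042 without the first and -0.018 without the second. It was -0.23 without shock array 6. Sema5b (-0.023) varied least, with a pooled SD of 0.028. Sema6b, a ligand of plexin-A4, differed by 0.050, Sema6c by -0.041 and Sema6d, a ligand of plexin-A1, by -0.043.

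The plexin-A receptors, which serve class 3 semaphorins with neuropilins and class 6 semaphorins directly, differed by at most 0.073. Plxna4 had 9.05, 9.13, 9.23 and 9.26 on the cocaine arrays, against 9.09, 9.20 and 9.20 on the shock arrays. Its shock values lay inside the span of its cocaine values, and the difference of 0.0065 (95% interval -0.14 to 0.15) was the smallest of the family. Plxna3 differed by 0.073, Plxna2 by 0.031 and Plxna1 by -0.018. A second Plxna1 probe set, with a mean of 6.46, differed by -0.0055. Plxnd1, the receptor of Sema3e, had 8.90, 8.94, 9.05 and 9.03 on the cocaine arrays, against 8.93, 9.02 and 8.82 on the shock arrays. The difference of 0.054 (95% interval -0.095 to 0.20) was 0.00032 without shock array 6, the lowest.

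Setting 9 known ligand and receptor pairs side by side, the 2 partners had differences of the same sign in 4 pairs and of opposite sign in 5. Pairs of opposite sign included Sema7a with Plxnc1 (0.083 and -0.047), Sema3f with Nrp2 (0.099 and -0.077) and Sema4d with Plxnb1 (0.057 and -0.070). In Sema5a with Plxnb3 both means were lower (-0.10 and -0.095), and in Sema3e with Plxnd1 both were higher (0.017 and 0.054). None of these differences passed limma's adjusted p, and the pairs were listed with the values known. Leaving out single arrays reversed the sign of Sema3a, Sema3e, Sema4c, Sema4d, Sema6d, Plxna1, Plxna2 and Plxnb1, so the counts of equal and opposite signs are not firm.

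**Figure D3:**
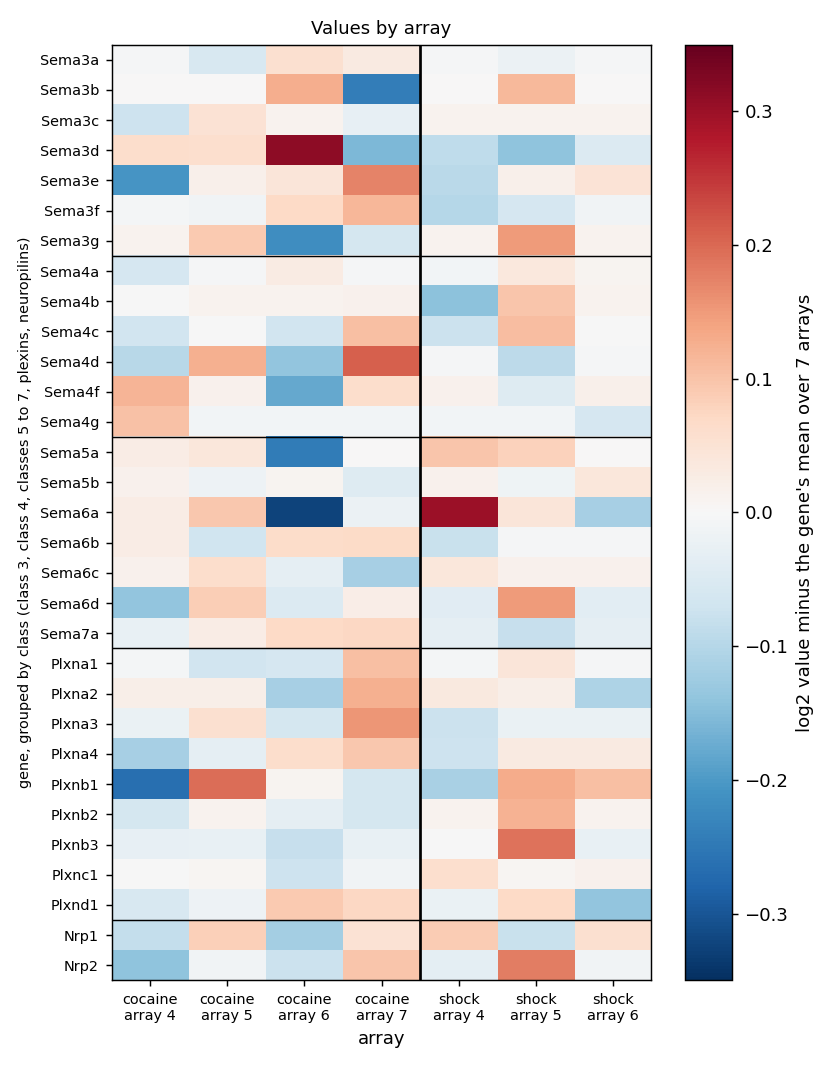
Log2 value of each of the 31 genes on each array after subtraction of its 7-array mean (red above, blue below), with the 4 cocaine arrays left of the line and the 3 shock arrays right of it. No column block separates the groups, and cocaine array 6 has the lowest value of 9 genes, among them Sema5a and Sema6a.

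The highest and lowest values of the members fell on arrays of both groups. Cocaine array 6, the array farthest from the others over all genes (mean distance 37.2, against 27.5 to 29.6 for the other 6), was the lowest array for 9 members and the highest for 4. Cocaine array 7 was the highest for 9 members and shock array 5 for 8, while cocaine array 4 was the lowest for 8. The mean of the 31 members after centring each gene ran from -0.034 to 0.024 on the cocaine arrays and from -0.011 to 0.034 on the shock arrays, and these ranges overlap. Without cocaine array 6 the median difference of the members was -0.0048.

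Sema4d, Sema5a, Sema6a and Plxnb3, listed with the values known as members with a place in oligodendrocytes, were all lowest on cocaine array 6. That array was the lowest for 9 of all 31 members. It was lowest by little in Sema4d (7.33, next 7.37) and Plxnb3 (5.996, next 6.05). Their mean centred level was -0.20 on that array, against -0.019 to 0.059 on the other cocaine arrays and -0.037 to 0.097 on the shock arrays. The 11 measured oligodendrocyte markers, a list without these genes, had centred levels of -0.085, 0.11, -0.093 and 0.16 on cocaine arrays 4 to 7, and 0.051, -0.023 and -0.12 on shock arrays 4 to 6. The markers were lowest on shock array 6, and 8 of the 11 had a higher mean in the cocaine group. Olig2, an oligodendrocyte lineage factor, differed by -0.16 (unadjusted p = 0.0445, adjusted p = 0.938 by limma). Its cocaine values lay below its shock values, as in 1.11% of all genes. Olig2 was the 1 marker of the 11 with an unadjusted p under 0.05, beside 3.1% of all genes. Cldn11, Mobp and Opalin, genes of myelin, differed by 0.14, 0.15 and 0.13. In RNA taken from many cells at once fewer cells of a type and less RNA per cell cannot be told apart, nor, without input RNA, can RNA of tagged cells and RNA carried along from others. The part of oligodendrocytes in these values was not tested.

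Sema3g, Plxnd1 and Nrp1 were listed, with the values known, as 3 members with roles in vessels. The list is not complete, and Nrp2, for example, is not in it. Its centred level ran from -0.081 to 0.053 on the cocaine arrays and from -0.023 to 0.047 on the shock arrays. The endothelial markers had a lower mean in the cocaine group in 15 of 15 measured genes, all above the background level. Their centred levels were -0.28 to 0.0072 on the cocaine arrays and 0.070 to 0.165 on the shock arrays, without overlap. Of the 15, 5 had an unadjusted p under 0.05 (beside 3.1% of all genes), all lower in the cocaine group, and 3 did not overlap, with cocaine below shock (beside 1.11%). By limma the transporter genes Slco1a4 and Abcb1a differed by -0.48 (unadjusted p = 0.00215) and -0.255 (unadjusted p = 0.0115), both without overlap, the cadherin gene Cdh5 by -0.30 (unadjusted p = 0.0242), and the tight junction gene Cldn5 by -0.29 (unadjusted p = 0.0457), without overlap. None of the 15 passed limma's adjusted p (smallest adjusted p = 0.938), and the part of vascular cells in the values of the 3 members was not tested.

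**Figure D4:**
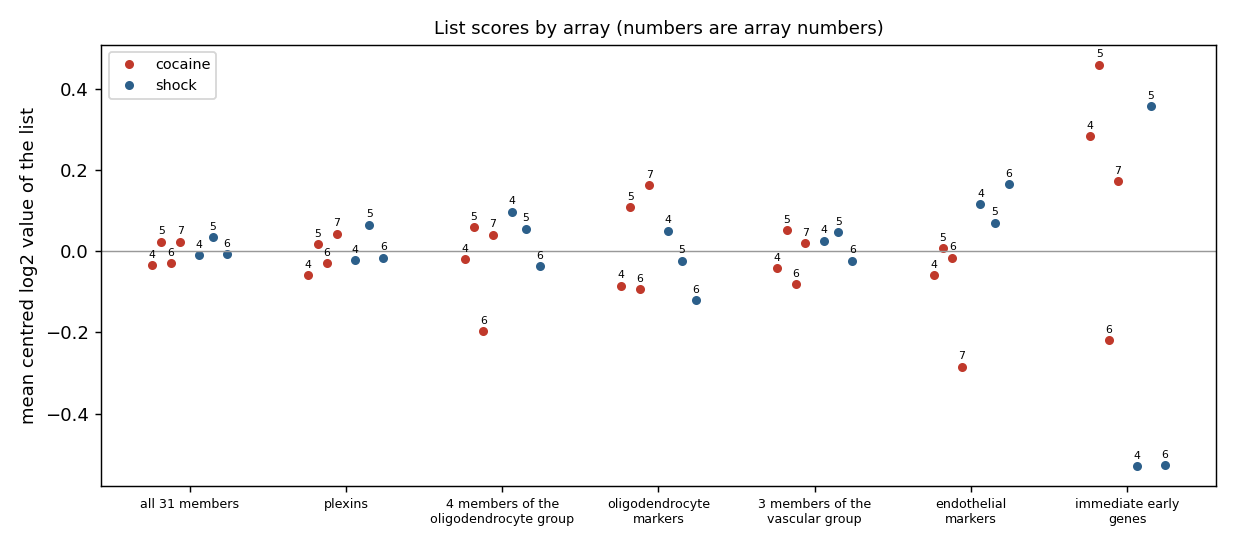
Mean centred log2 value of 7 gene lists on each array (points labelled with the array number, cocaine at left and shock at right of each list). The 31 members stay within 0.034 of 0 on all arrays, the 4 members of the oligodendrocyte group are low on cocaine array 6, and immediate early genes span the widest range.

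Other cell types were followed by marker lists in the same fit. Excitatory neuron markers lay above the background level in 9 of 9 measured genes, and Slc17a7, the cortical vesicular glutamate transporter gene, had means of 11.73 ± 0.037 on cocaine arrays (SD, n = 4), against 11.65 ± 0.060 on shock arrays (SD, n = 3). The mean was higher in the cocaine group for 3 of 9 excitatory neuron markers (median difference -0.038), with Emx1, Neurod6 and Neurod2 at -0.055, 0.15 and -0.059. It was higher for 4 of 13 inhibitory neuron markers (median -0.060), with Sst, Lhx6, Dlx2 and Gad2 at -0.19, -0.12, -0.125 and -0.093. It was higher for 3 of 9 microglia markers (median -0.048), with Cx3cr1, Tmem119, C1qb and C1qa at -0.18, -0.095, -0.13 and 0.075. Centred levels of the microglia list ran from -0.034 to -0.008 on the cocaine arrays and from 0.0073 to 0.046 on the shock arrays, without overlap. Those of the excitatory and inhibitory lists overlapped.

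Striatal neuron markers had a higher mean in the cocaine group in 9 of 9 measured genes (median 0.14), and their centred levels ran from 0.013 to 0.175 on the cocaine arrays and from -0.12 to -0.051 on the shock arrays, without overlap. The level of 0.175 was that of cocaine array 6, beside 0.013 to 0.036 on the other cocaine arrays. Of the 9 markers, 3 had an unadjusted p under 0.05 (beside 3.1% of all genes). The same 3 had no overlap, with cocaine above shock (beside 1.25%). They were the dopamine receptor gene Drd1 (0.33), the retinoic acid receptor gene Rarb (0.23) and the phosphodiesterase gene Pde10a (0.17). The neuropeptide gene Tac1 followed (0.14). Astrocyte markers had a lower mean in the cocaine group in 12 of 12 genes (median -0.14), with Sox9, Aqp4, Gja1 and Mlc1 at -0.20, -0.18, -0.23 and -0.20, and 0 had an unadjusted p under 0.05. Mural cell markers did so in 10 of 10 (median -0.27, 0 with an unadjusted p under 0.05), with Abcc9, Myh11, Rgs5 and Pdgfrb at -0.40, -0.16, -0.45 and -0.27. Meningeal fibroblast markers did so in 9 of 10 (median -0.15), with Slc6a13, Igf2, Lum and Dcn at -0.23, -0.30, -0.23 and -0.42. Of the 10, 2 had an unadjusted p under 0.05, beside 3.1% of all genes. In the astrocyte, mural and meningeal lists the centred levels of the groups overlapped. Astrocyte levels ran from -0.18 to 0.11 on the cocaine arrays and from -0.019 to 0.14 on the shock arrays. Mural levels ran from -0.38 to 0.079 and from -0.15 to 0.58, the last on shock array 6. Meningeal levels ran from -0.155 to 0.0085 and from -0.045 to 0.21. The part of these cell types in the values of the family was not tested.

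Immediate early genes had a higher mean in the cocaine group in 24 of 24 genes (median 0.32), with overlapping centred levels of -0.22 to 0.46 on the cocaine arrays and -0.53 to 0.36 on the shock arrays. An unadjusted p under 0.05 was found for 3 (beside 3.1% of all genes), the transcription factor gene Npas4 (1.49), Btg2 (1.01) and Gadd45g (0.68). Egr4 followed (0.54). Arc, whose promoter drove the tag, had means of 9.51 ± 0.55 on cocaine arrays (SD, n = 4), against 8.83 ± 0.91 on shock arrays (SD, n = 3). No gene of these lists passed limma's adjusted p (smallest adjusted p = 0.938).

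Genes for proteins that work with the family were set beside it. Of 12 measured co-receptors and other binding partners, 0 passed the adjusted p and 2 had an unadjusted p under 0.05, both lower in the cocaine group (beside 3.1% of all genes). Centred levels of this list ran from -0.058 to -0.0078 on the cocaine arrays and from 0.016 to 0.067 on the shock arrays, without overlap. Met, a receptor tyrosine kinase that associates with plexin-B proteins, had 5.72, 5.66, 5.62 and 5.73 on the cocaine arrays, against 5.80, 5.74 and 5.98 on the shock arrays. All its cocaine values lay below its shock values, as in 1.11% of all genes. Its difference was -0.16 (unadjusted p = 0.0455, adjusted p = 0.938 by limma). Itga1, an integrin subunit that pairs with the beta1 chain bound by Sema7a, differed by -0.29 (unadjusted p = 0.036, adjusted p = 0.938 by limma), with overlapping groups. Erbb2 (-0.13) and Mst1r (-0.093, under the background level) followed.

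Of 28 measured intracellular effectors, 15 had a higher and 13 a lower mean in the cocaine group, with a median of 0.0067, and 0 had an unadjusted p under 0.05. The kinase gene Fyn differed by 0.088, the Cdk5 activator gene Cdk5r1 by 0.068, and the GTPase genes Rras and Rhoa by -0.20 and -0.053. In the VEGF group, whose ligands share the neuropilins, 7 of 8 genes had a lower mean in the cocaine group. Centred levels of this list ran from -0.091 to 5.63e-05 on the cocaine arrays and from 0.022 to 0.107 on the shock arrays, without overlap. The receptor genes Flt1 (-0.30, unadjusted p = 0.0413 and adjusted p = 0.938 by limma), Kdr (-0.19) and Flt4 (-0.11) and the ligand gene Vegfd (-0.14) had the smallest p. The endothelial markers had lower means in the cocaine group too, as given above, and their part in the VEGF receptor values was not tested.

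The start regions of the members were searched for motifs of activity-regulated transcription, since the tag itself depends on an activity-regulated promoter. RefSeq windows of 300 bases on GRCm38.p6, from 250 before to 50 after a gene's start, were found for 26 of the 31 members, 37 windows in all. The cAMP response element TGACGTCA, searched on both strands like the other motifs, was in 0 of 37 windows and in 1.79% of all 32851 windows. Its core TGACG, which the full element contains, was in 3 of 37 (8.11%), those of Sema3d, Sema5a and Sema7a, against 20.8% of all windows. The AP-1 motif was searched in the loose form TGANTCA, which takes any base at N. It was in 3 of 37 (8.11%), against 7.81%, and the serum response CArG motif in 1 of 37 (2.7%), against 1.63%. The median GC content was 63.7% for the members and 52.7% for all windows. A match is a description of these letters and not a binding site.

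The windows shown are those of Sema7a, the member whose groups did not overlap, of its receptor Plxnc1, and of Sema4d, the single window with a CArG match. They lie at chr9:57939862-57940161 (plus strand), chr10:94944796-94945095 (minus strand) and chr13:51748761-51749060 (minus strand), each read 5′ to 3′ on the gene's strand with motif matches in capitals, the core TGACG in Sema7a and the adjacent AP-1 and CArG matches in Sema4d. The Plxnc1 window holds none of the motifs. The AP-1 match of Sema4d reads TGAATCA, with A at the free base, and so rests on the loose form.
Sema7a: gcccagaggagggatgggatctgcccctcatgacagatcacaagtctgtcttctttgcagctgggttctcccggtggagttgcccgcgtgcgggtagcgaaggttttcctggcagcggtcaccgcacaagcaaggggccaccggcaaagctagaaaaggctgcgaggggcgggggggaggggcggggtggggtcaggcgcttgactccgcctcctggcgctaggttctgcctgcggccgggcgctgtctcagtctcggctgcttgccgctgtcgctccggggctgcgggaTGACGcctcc
Plxnc1: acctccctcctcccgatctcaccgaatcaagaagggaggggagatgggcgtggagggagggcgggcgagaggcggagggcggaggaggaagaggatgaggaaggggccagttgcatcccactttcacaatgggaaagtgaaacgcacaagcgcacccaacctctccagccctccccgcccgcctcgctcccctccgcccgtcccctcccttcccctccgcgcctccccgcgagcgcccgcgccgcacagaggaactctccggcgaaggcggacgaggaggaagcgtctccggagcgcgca
Sema4d: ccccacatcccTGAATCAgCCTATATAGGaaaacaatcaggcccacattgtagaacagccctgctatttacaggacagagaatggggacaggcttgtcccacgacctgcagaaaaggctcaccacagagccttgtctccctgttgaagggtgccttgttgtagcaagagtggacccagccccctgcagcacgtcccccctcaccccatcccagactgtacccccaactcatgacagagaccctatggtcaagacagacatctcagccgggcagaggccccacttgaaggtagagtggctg
The Sema4d window is 1 of 3 listed starts of the gene. The group difference of Sema4d was 0.057 with overlapping groups (adjusted p = 0.95 by limma).

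One property of the deposited values bears on all these comparisons. In 23 of the 31 members (74.2%) 2 or more arrays held exactly the same value to the last deposited digit, beside 66.9% of all genes. In 22 of these 23 the shared value was the median of the 7 arrays, as it was in 98.5% of the genes with a shared value. Up to 5 arrays shared it, in Sema4g, and Sema3c had 6.16 on all 3 shock arrays. A value shared across groups counts as overlap, and shared values narrow the spread within a group. Sema7a was among the 8 members with 7 different values.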

How the data were processed

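The deposited table holds log2 expression values of 41345 probe sets on 7 one-colour Affymetrix arrays, a scale read from the values (1.12 to 13.44). Per the submitters' processing notes the authors used Transcriptome Analysis Console. How probes were summarized, normalized or filtered is not given in the sources used here. Lower quartiles, medians and upper quartiles were 4.08 to 4.15, 5.44 to 5.47 and 7.10 to 7.16 on the arrays, so a difference is one relative to the array as a whole. The number of arrays limits the precision, and arrays carry no read depth.

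Groups came from the labels. The platform annotation gave 1 symbol to 23521 probe sets, several to 1814 and none to 16010. The 33 probe sets of the family cover 31 genes. limma 3.58.1 in R 4.3.3 (lmFit, eBayes, two-sided, no covariate) was fitted to all 22180 genes with Benjamini-Hochberg adjustment at 0.05, and was tested on simulated data. The choice of this family and of its members, gene lists, pairs and tests was made with earlier results of these data known. Every member is named. Values on each array are given for the 8 of smallest unadjusted p, for members above background without overlap, for 6 set genes (Nrp1, Nrp2, Sema3a, Sema7a, Plxna4, Plxnd1), and for Sema4d, Sema4g and Sema6a, chosen after their values were seen. The 4 genes of smallest p are named from each other list, and Arc, Cldn5 and Slc17a7 besides. As alternatives, single arrays were left out in turn, values were quantile normalized or median centred, genes under the background level were dropped, probe sets of 1 gene were averaged, and limma was run with trend and robust moderation, with array weights and with the title number as a replicate block.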

Additional observations from a re-analysis of the deposited data

Results flagged for a closer look

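Among the 4 cocaine arrays, 4 of 33 measures had 1 array whose gap to its nearest neighbour was too large a part of the group's range by the 95% limit of Dixon's test for 4 samples, which chance passes in about 5% of groups. Plxnb3 was lowest on cocaine array 6 (5.996, gap 0.9608 of the range), Sema5a was lowest on the same array (8.74, gap 0.8571), and that array also had the longest mean distance to the other arrays (37.2, gap 0.9746). Sema4g was highest on cocaine array 4 (7.11), and since the other 3 cocaine arrays held 1 identical value its gap was 1 of the range. Plxnb3 and Sema4g had values shared within the cocaine group, which favours a large gap. The 3 shock arrays were not tested this way.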

How the results depend on the processing

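Under all 14 alternatives 0 members, 0 genes of the other lists and 0 genes overall passed limma's adjusted p at 0.05 (smallest adjusted p of a member 0.871). Genes at an unadjusted p under 0.05 numbered 688, 450 with dim genes left out, 660 to 915 under the other settings (915 with the replicate block) and 531 to 788 with single arrays left out. Members at an unadjusted p under 0.05 numbered 0, or 0 to 1 with single arrays left out (Sema7a without cocaine array 4, unadjusted p = 0.0267, and Sema3d without cocaine array 7, unadjusted p = 0.028), 1 with trend and robust moderation (Sema7a, unadjusted p = 0.0489) and 1 with the replicate block (Sema3d, unadjusted p = 0.0191). Members without overlap of the groups numbered 1, or 1 to 5 with single arrays left out (5 without cocaine array 5, where 5.8% of all genes did not overlap, 4 without shock array 6, with 8.41%, and 2 without cocaine array 7 or shock array 5, with 4.26% and 9.68%), 3 after quantile normalization (4.69% of all genes) and 4 after median centring (11.4%). Sema7a was among them under every alternative, but only quantile normalization and median centring could have changed this. Leaving out an array cannot make separate groups overlap, and the remaining settings used the same Sema7a values. The median difference of the members stayed between -0.026 and 0.0023.

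Of the 31 differences, 18 kept their sign under every alternative and 13 did not. Leaving out single arrays gave ranges that cross 0 for Plxna1 (-0.055 to 0.0023), Plxna2 (-0.015 to 0.074), Plxna4 (-0.028 to 0.046), Plxnb1 (-0.15 to 0.0079), Sema3a (-3.33e-05 to 0.037), Sema3b (-0.12 to 0.0047), Sema3c (-0.041 to 3.33e-05), Sema3e (-0.039 to 0.088), Sema4b (-0.045 to 0.074), Sema4c (-0.061 to 0.031), Sema4d (-0.0048 to 0.11), Sema4f (-0.030 to 0.070) and Sema6d (-0.078 to 0.020). Median centring gave 0.0025 for Plxna1 and 0.0023 for Sema4c. The replicate block gave -0.0064 for Plxna2, -0.024 for Plxna4, 0.0047 for Sema3b, -0.039 for Sema3e, -0.0048 for Sema4d and -0.010 for Sema4f. Why single arrays changed the signs was not tested. Cocaine array 7 has no shock array of its number, so the block fit takes no difference from it. The block differences therefore equalled those without cocaine array 7, as for Plxna2 and for Sema3d (0.24), and are no separate result.

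Arrays of the same number deviated from their group means with correlations of 0.13, 0.064 and 0.16 over all genes, all of them positive. Pairs of different number had correlations from -0.12 to 0.09, most of them negative. Deviations from a group mean sum to 0 over its arrays, so a positive pair pulls the other pairs of its arrays towards negative values. Shock array 5 correlated more with cocaine array 7 (0.09) than with cocaine array 5. The labels do not say what the numbers stand for, and whether arrays of the same number share an origin was not tested. The main fit treated the samples as sharing only a number.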
